A study of Mus musculus with 12 samples.

Results

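Genes of the BCL2 family, which decide whether the outer mitochondrial membrane stays sealed or is opened during apoptosis, were followed through 12 microarrays of Sgpp2-deficient and wild-type mice. The members were the survival genes Bcl2, Bcl2l1 and Mcl1, the pore formers Bax and Bak1, and the BH3-only genes Bad, Bid, Bbc3, Bcl2l11 and Pmaip1. Every probe set that the platform's gene table pairs with 1 of these 10 symbols alone was taken, and sets with several symbols were not. That gave 29 of 45037 probe sets, for 9 of the 10 genes. They were 5 for Bcl2, 4 for Bcl2l1, 6 for Mcl1, 2 for Bak1, 2 for Bad, 3 for Bid, 1 for Bbc3, 5 for Bcl2l11 and 1 for Pmaip1. No probe set had Bax as its only symbol in that table, and the level of Bax is not analysed here.

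RNA from C57BL6 mice, either wild type (WT) or Sgpp2-/- (KO), was hybridised to Affymetrix mouse expression arrays after a normal or a high fat diet. The 4 groups, WT normal, KO normal, WT high-fat and KO high-fat, held 3 arrays each. Sgpp2 encodes sphingosine-1-phosphate phosphatase 2, which removes the phosphate from the lipid sphingosine-1-phosphate in the endoplasmic reticulum. The sample labels gave no tissue, age, sex or length of the diet and did not say in which cells Sgpp2 was lost; pancreatic islets were named in the title of the series. Whether each array stands for a mouse of its own was not stated, and p-values here cover only the variation among these arrays, part of which may be technical.

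BCL2, BCL-XL (the product of Bcl2l1) and MCL1 hold the pore formers BAX and BAK in check. The BH3-only proteins are sensors of damage: BIM (Bcl2l11), PUMA (Bbc3), NOXA (Pmaip1), BAD and BID bind the survival proteins, and some of them activate BAX and BAK directly, after which cytochrome c leaves the mitochondria and caspases are activated. In β-cells these proteins are known for their part in death under endoplasmic reticulum stress, cytokines and excess fatty acids, and several of them, BAD and BID above all, are controlled by phosphorylation or cleavage, which an array of RNA does not read.

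Bcl2 and Mcl1 each had only 1 probe set past the test below, and that of Bcl2 passed the filter through its WT arrays. The 250 bases before the start site are shown for both and for Bcl2l11, which had the largest positive difference of a member, short of the threshold. They are RefSeq sequences of build GRCm38.p6, read 5′ to 3′ along the gene, for Bcl2 at chr1:106714291-106714540 on the minus strand, for Mcl1 at chr3:95658471-95658720 on the plus strand and for Bcl2l11 at chr2:128125788-128126037 on the plus strand, with capitals at each match to the motifs searched.
Bcl2: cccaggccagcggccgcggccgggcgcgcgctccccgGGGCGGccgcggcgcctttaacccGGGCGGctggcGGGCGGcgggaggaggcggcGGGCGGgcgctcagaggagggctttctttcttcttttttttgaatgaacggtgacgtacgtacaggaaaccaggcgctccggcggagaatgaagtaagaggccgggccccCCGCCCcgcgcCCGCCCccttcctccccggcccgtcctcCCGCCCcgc
Mcl1: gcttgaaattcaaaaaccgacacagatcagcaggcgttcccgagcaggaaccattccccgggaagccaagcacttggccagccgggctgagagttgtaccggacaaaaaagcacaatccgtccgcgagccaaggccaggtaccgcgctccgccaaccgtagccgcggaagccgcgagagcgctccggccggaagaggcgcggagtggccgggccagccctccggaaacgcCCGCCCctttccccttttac
Bcl2l11: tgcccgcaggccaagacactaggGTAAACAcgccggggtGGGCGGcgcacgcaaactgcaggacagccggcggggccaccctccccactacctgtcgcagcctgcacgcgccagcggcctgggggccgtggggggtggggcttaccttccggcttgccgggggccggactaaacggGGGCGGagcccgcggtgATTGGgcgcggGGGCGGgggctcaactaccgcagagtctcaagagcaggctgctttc
Bcl2 had 7 GC boxes in this window and 74.8% G and C, Mcl1 had 1 GC box 20 bases before the start and 64.4%, and Bcl2l11 had 3 GC boxes, a CCAAT box 57 bases and a FOXO site 227 bases before the start and 72.0%. Another Bcl2l11 start, with its window at chr2:128127325-128127574, is not shown. That window held GC and CCAAT boxes and no FOXO match.

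The motifs were searched on both strands in 32851 such windows of 27025 genes, 15 of them of 9 member genes. Pmaip1 had no entry. The median window held 52.4% G and C. The 15 include several starts each of Bcl2l1, Bcl2l11, Bbc3 and Bad, so these genes count more than once, and some windows of Bbc3 overlap. The GC box (GGGCGG), bound by SP1, was in 10 of the 15 windows and in 32.7% of all. The CCAAT box (CCAAT) was in 4 windows and in 33.8% of all, the E-box (CACGTG) in 2 and in 6.02%, and the FOXO site (GTAAACA) in 2, of Bcl2l11 and Bbc3, and in 3.17%. The cAMP response element (TGACGTCA), the ATF4 and CHOP element (TGATGCAA), the STAT site (TTCNNNGAA) and the TATA box (TATAAA) were in 0 of the 15 windows and in 1.55%, 0.791%, 7.02% and 12.4% of all. Different motifs overlapped in 0 member windows. These matches are letters in a window and were not tested as binding sites.

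The values are on a log2 scale, so that a difference of 1 is a 2-fold change, and levels are not compared between probe sets because each has its own brightness. As a coarse look only, islet hormone genes were among the brightest probe sets (mean 14.57 for Ins2, 14.40 for Gcg). Acinar enzyme genes were as bright (14.63 for Ctrb1, 14.38 for Cela3b), and the fat cell gene Adipoq was at the lower end (3.53). Sgpp2 itself was lower in all 6 KO arrays (11.17 or less) than in all 6 WT arrays (11.46 or more), with 72.7% of the WT mean left (log2 difference −0.46, p = 0.00216 by an exact permutation of 6 against 6 arrays, two-sided). Whether its probe set lies within the deleted stretch is not known here, and one outside it need not show the deletion. WT high-fat array 2 stood apart: component 1 of a principal component analysis (26.8% of the variance) put it at 2.7, beside KO arrays (5.0 to 32.5) and away from the other WT arrays (−34.2 to −9.9), so member results are given with and without it where it matters. Markers of other cells also differed between the genotypes on average over the diets. All 9 acinar markers measured were higher in KO (median log2 difference 0.12; list means 12.33 to 12.65 in WT normal, 12.53 to 12.86 in KO normal, 12.13 to 12.65 in WT high-fat and 12.41 to 12.49 in KO high-fat). All 5 endothelial markers were lower in KO (median −0.23; 9.65 to 9.81, 9.43 to 9.56, 9.83 to 9.93 and 9.56 to 9.71 in the same order), and so were 4 of 5 macrophage markers (median −0.24; 8.97 to 9.14, 8.80 to 8.98, 8.71 to 9.38 and 8.47 to 9.16). T and NK cell markers were higher in KO in 6 of 6 (median 0.11; 5.37 to 5.43, 5.46 to 5.69, 5.46 to 5.60 and 5.49 to 5.69), those of alpha, delta and PP cells in 1 of 5 (median −0.09; 12.43 to 12.61, 12.27 to 12.39, 12.26 to 12.43 and 12.12 to 12.40) and those of Schwann cells in 0 of 2 (median −0.25; 6.28 to 7.66, 6.42 to 6.60, 6.01 to 6.34 and 5.97 to 6.25). Beta cell markers were higher in 3 of 8 (median −0.05). The T and NK genes were dim, with means from 5.09 to 6.12, near the log2 value of 5 used as a filter below. Of the other lists, stromal markers were higher in KO in 4 of 6 (median −0.14 on the normal and 0.27 on the high-fat diet). Ductal markers were higher in 2 of 4, B and plasma cell markers in 1 of 4, liver markers in 2 of 3 and fat markers in 0 of 2. The part of these cells in the member results below was not tested, and in RNA from whole tissue fewer cells of a type and less RNA per cell cannot be told apart.

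**Figure D1:**
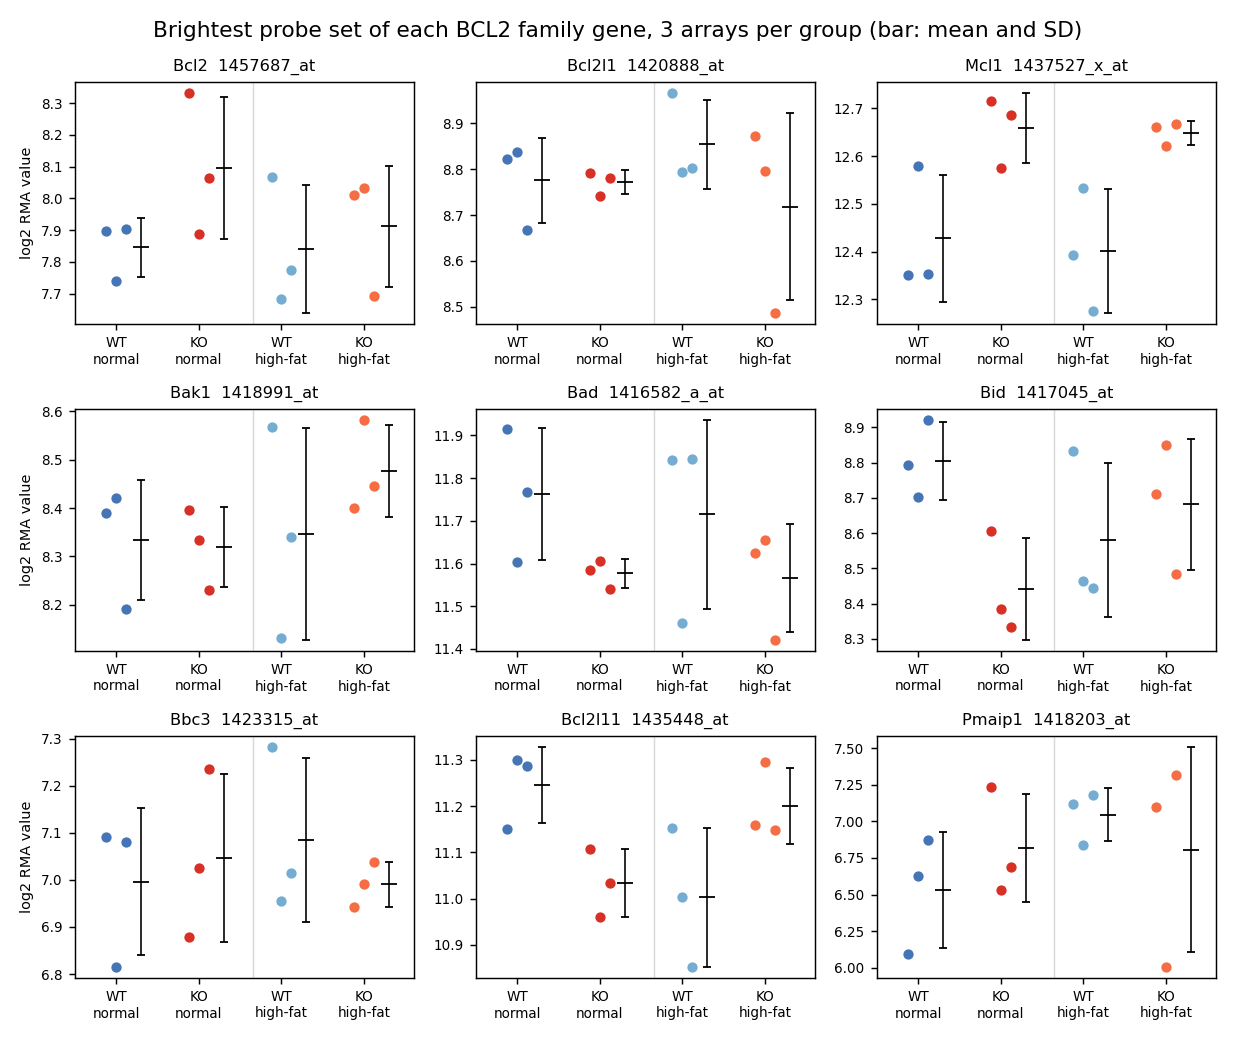
Log2 value (vertical axis) of the brightest probe set of each of the 9 measured BCL2 family genes, 1 point per array in the 4 groups of 3 arrays, with the mean and SD of each group as a bar. Each panel has its own scale: the group SDs of Mcl1 are 0.03 to 0.13, and the 3 KO high-fat arrays of Pmaip1 run from 6.01 to 7.32.

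Of the 29 probe sets, 28 passed the filter, a log2 value above 5 on at least 3 of 12 arrays. The other, Bid 1447873_x_at, lay between 4.30 and 5.10. All results below come from limma's moderated test over 35426 probe sets, two-sided, with Benjamini-Hochberg adjustment within a comparison and a threshold of 0.05. KO was compared with WT within each diet and on average over both diets, the high-fat with the normal diet within each genotype, and the interaction asks whether the diet difference in KO departs from that in WT. These comparisons share arrays, so their values are set side by side and are not counted as separate evidence.

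On the normal diet 0 of 28 member probe sets passed the test, where 1.34% of all probe sets did. At an unadjusted p under 0.05 there were 7 (25%), against 21% of all. On the high-fat diet it was again 0 of 28, where 0.271% of all passed, with 6 (21.4%) at an unadjusted p under 0.05, against 14.8%. On average over the diets 2 of 28 passed (7.14%), where 8.39% of all did. One, of Bcl2, was lower in KO and passed the filter through its WT arrays, with 1 KO array above 5, so it adds nothing to the count as support. The other, of Mcl1, was higher in KO. Of all probe sets 3.8% were called higher and 4.59% lower. Rises were 45.3% of these calls, but 64.5% with cyclic loess and 72.2% with median centring, and both member differences kept their direction there, though the Mcl1 set was no longer called with cyclic loess. Of the members, 7 (25%) had an unadjusted p under 0.05, against 28.1% of all. The share of members called was thus near the background in each comparison of the genotypes. The median difference of the members was 0.03 on average over the diets, beside −0.04 for all probe sets tested, with 17 higher and 11 lower in KO. Values of the 2 genotypes did not overlap for 5 of 28 member probe sets on the normal diet (31.3% of all probe sets), for 9 of 28 on the high-fat diet (16.8%) and for 1 of 28 over both diets (5.46%). The 9 were sets of Bcl2, Mcl1 and Bcl2l11 only, and sets of the same gene are not independent. The 1 over both diets was the Bcl2 set that passed the filter through its WT arrays. That set is also among the 5 and the 9, and adds nothing to these counts as support. The 9 also hold Bcl2l11 1426334_a_at, which lay near the filter value, between 4.79 and 5.11.

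**Figure D2:**
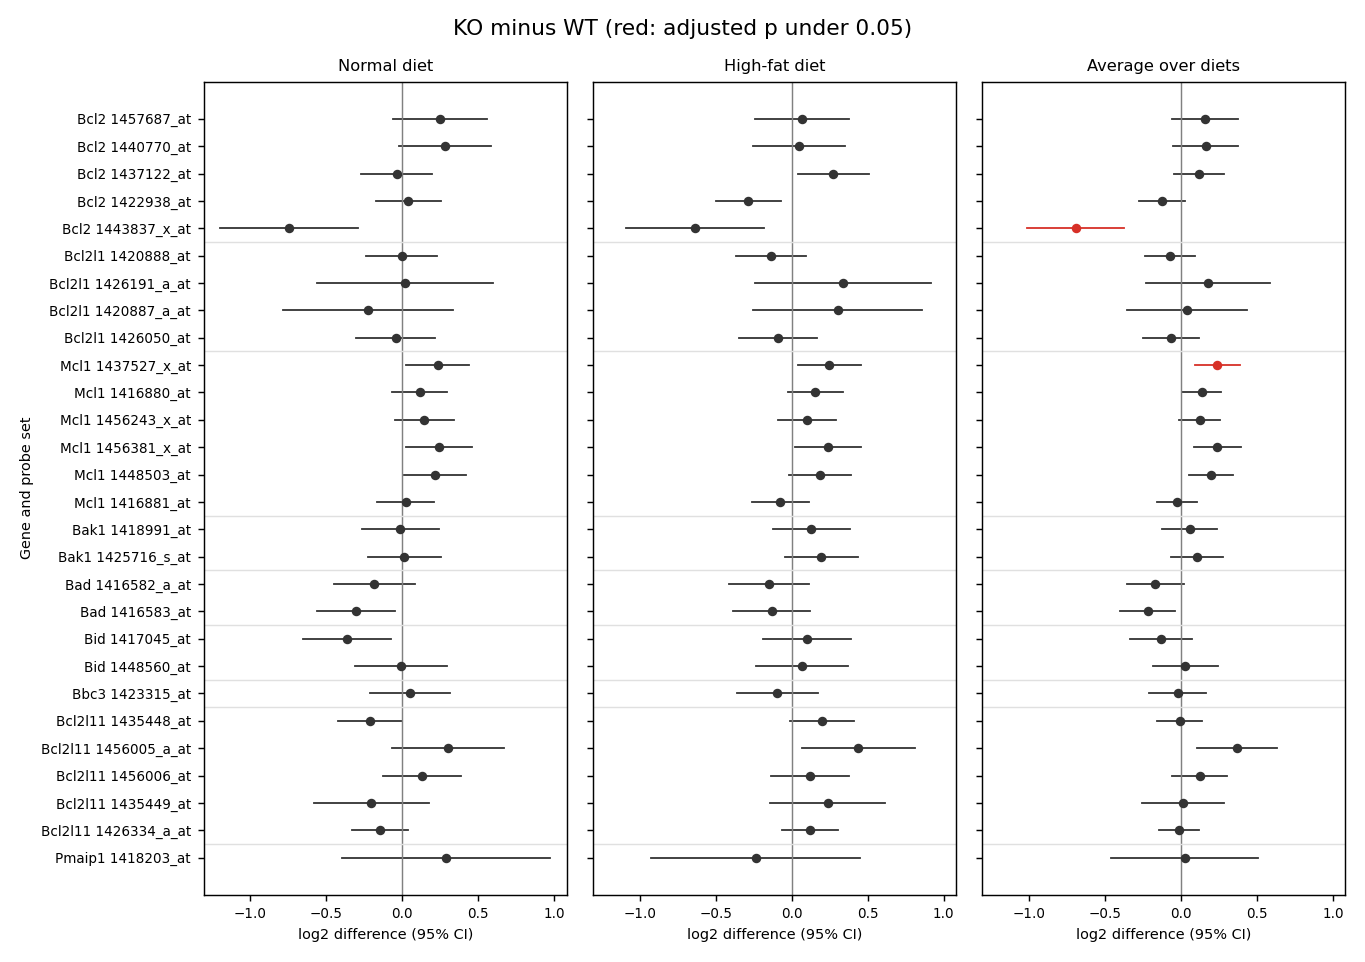
Log2 difference of KO minus WT (horizontal axis) for the 28 tested member probe sets on the normal diet, on the high-fat diet and on average, with 95% confidence intervals from the limma fit as lines and probe sets with an adjusted p under 0.05 in red. In red are the lowest Bcl2 value, −0.69, and an Mcl1 value of 0.24, both in the average. The Bcl2 set in red passed the filter through its WT arrays.

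Bcl2, the founding survival gene of the family, was read by 5 probe sets that did not move together, and a dim one was called lower in KO. That set, 1443837_x_at, read 5.17, 5.24 and 5.50 in WT normal, 4.72, 4.84 and 4.11 in KO normal, 5.31, 5.78 and 5.28 in WT high-fat and 4.77, 4.57 and 5.11 in KO high-fat. All 6 KO arrays were below all 6 WT arrays. Of its 12 values 7 were above 5, all 6 of WT and 1 of KO, so it passed the filter through the group where it is high, and its KO values lie where the scale understates differences. The average difference was −0.69 (SE 0.15, 95% confidence interval −1.01 to −0.37, adjusted p = 0.0181 with limma), and in the fit of all probe sets with no filter its adjusted p was 0.0197. Within a diet it differed by −0.75 under normal feeding (adjusted p = 0.089) and by −0.64 under high-fat feeding (adjusted p = 0.184), neither past the threshold. Leaving out WT high-fat array 2 gave −0.61 (adjusted p = 0.023), and the set was not tested where the filter was set at 6. The suffix _x_at marks sets in which some probes also match other sequences.

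The other 4 Bcl2 probe sets did not pass the test. The brightest, 1457687_at, read 7.90, 7.74 and 7.90 in WT normal, 8.33, 7.89 and 8.06 in KO normal, 8.07, 7.68 and 7.77 in WT high-fat and 8.01, 8.03 and 7.69 in KO high-fat. Its groups overlapped, with an average difference of 0.16 (SE 0.10, adjusted p = 0.318). For 1440770_at, with values from 6.72 to 7.25, the average difference was 0.16 (adjusted p = 0.298), for 1437122_at, from 6.61 to 7.22, it was 0.12 (adjusted p = 0.329), and for 1422938_at, from 6.47 to 6.95, it was −0.12 (adjusted p = 0.264). Thus 3 of these sets differed in the opposite direction from 1443837_x_at. On the high-fat diet alone the last 2 did not overlap between the genotypes and went opposite ways, 1437122_at by 0.28 (adjusted p = 0.268) and 1422938_at by −0.29 (adjusted p = 0.207), neither past the threshold. Over the 12 arrays 1443837_x_at correlated with the other 4 at r from −0.63 to 0.08, which is a description of sets that share all arrays. Bcl2 lies on chromosome 1 with Sgpp2, with 182 protein-coding genes between them, so for Bcl2 an effect of the missing Sgpp2 and an effect of DNA linked to the mutated allele cannot be told apart.

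**Figure D3:**
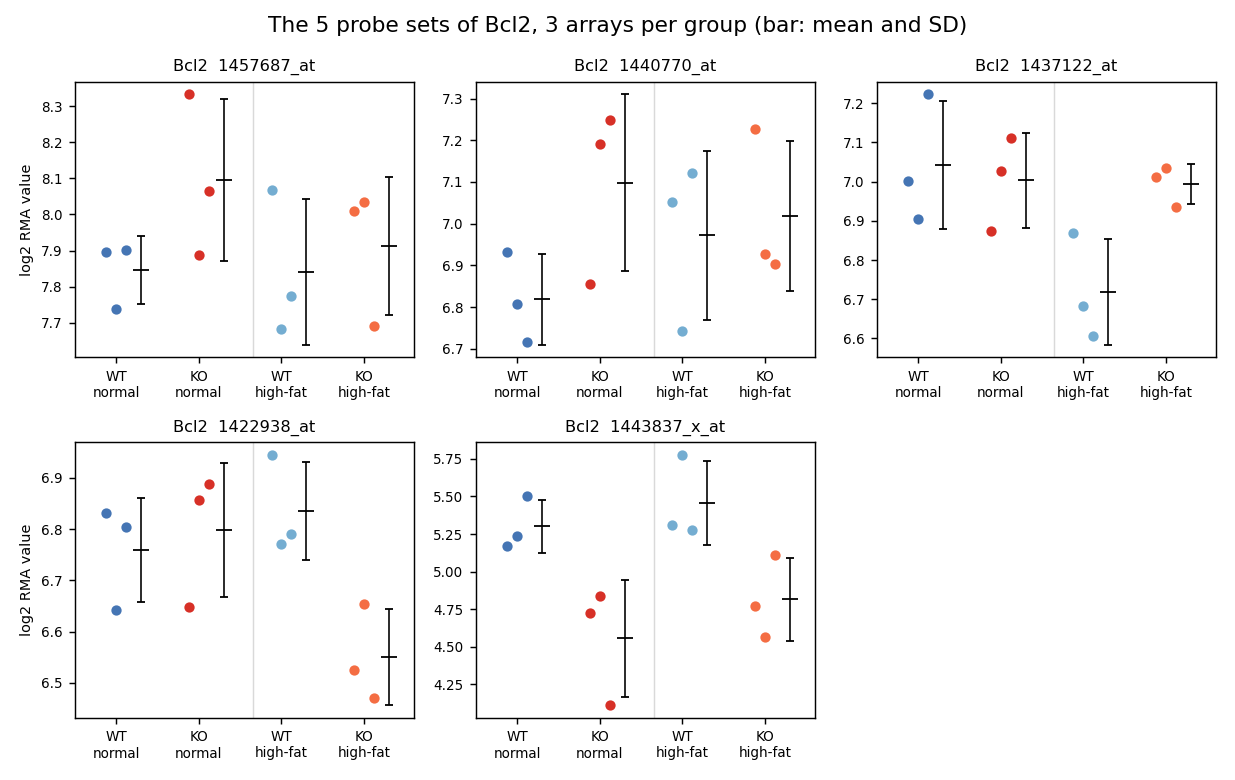
Log2 values (vertical axis) of the 5 Bcl2 probe sets, 1 point per array in the 4 groups, with the mean and SD of each group as a bar. In 1443837_x_at the 6 KO points, at 4.11 to 5.11, lie below the 6 WT points, at 5.17 to 5.78. In the other 4 sets the 6 KO and the 6 WT points overlap, though within the high-fat diet those of 1437122_at and 1422938_at do not.

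Bcl2l1, which encodes BCL-XL, did not pass the test in any of its 4 probe sets. The brightest, 1420888_at, read 8.82, 8.84 and 8.67 in WT normal, 8.79, 8.74 and 8.78 in KO normal, 8.97, 8.79 and 8.80 in WT high-fat and 8.87, 8.80 and 8.49 in KO high-fat. The groups overlapped, and the average difference was −0.07 (95% confidence interval −0.23 to 0.09, adjusted p = 0.57 with limma). Set 1426050_at, from 4.85 to 5.29, also had an average difference of −0.07. The sets 1426191_a_at and 1420887_a_at correlated with each other at r = 0.84 over 12 arrays, and WT high-fat array 3 was the lowest in both, at 6.33 and 5.66. Their average differences were 0.18 (SE 0.19) and 0.04 (SE 0.18), with standard errors above those of the other Bcl2l1 sets.

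Mcl1, a short-lived survival protein whose level follows its synthesis closely, was read by 6 probe sets, of which 1 was called higher in KO. That set, 1437527_x_at, read 12.35, 12.58 and 12.35 in WT normal, 12.72, 12.58 and 12.69 in KO normal, 12.39, 12.53 and 12.28 in WT high-fat and 12.66, 12.62 and 12.67 in KO high-fat. The high-fat groups did not overlap, and on the normal diet WT array 2 reached into the KO values. On average KO was higher by 0.24 (SE 0.07, 95% confidence interval 0.09 to 0.39, adjusted p = 0.049 with limma), or 118.1% of WT, with 0.23 under normal feeding (adjusted p = 0.198) and 0.25 under high-fat feeding (adjusted p = 0.258). The call lay at the threshold. It was made in 6 of 21 alternatives and was lost with the replicate number as a block (adjusted p = 0.0785), with same-numbered KO arrays as a random block (0.0742), with cyclic loess (0.0566), without the filter (0.0569), with the mean of the 6 sets in place of each (0.15, adjusted p = 0.111) and without any 1 of 10 arrays (0.0613 to 0.119). It stood when WT normal array 2 or WT high-fat array 2 was left out, in the latter case at 0.27 (adjusted p = 0.0252).

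Another 4 Mcl1 sets moved with it, at r from 0.84 to 0.98 between any 2 of the 5 over 12 arrays; they read the same gene and are not independent. Their average differences were 0.24 for 1456381_x_at (adjusted p = 0.0575), 0.20 for 1448503_at (0.0818), 0.14 for 1416880_at (0.157) and 0.12 for 1456243_x_at (0.219), none past the threshold. The sets 1456381_x_at and 1448503_at were both called with median centring (adjusted p = 0.0332 and 0.0412), with an intensity trend in the fit (0.0246 and 0.0432) and without WT high-fat array 2 (0.0371 and 0.03). The remaining set, 1416881_at, read 10.04, 9.96 and 9.87 in WT normal, 9.91, 10.02 and 10.00 in KO normal, 9.97, 9.96 and 9.77 in WT high-fat and 9.76, 9.83 and 9.89 in KO high-fat. Its average difference was −0.03 (adjusted p = 0.811), and its r with the other 5 lay between −0.02 and 0.12. Where along the transcript each set lies is not used here.

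**Figure D4:**
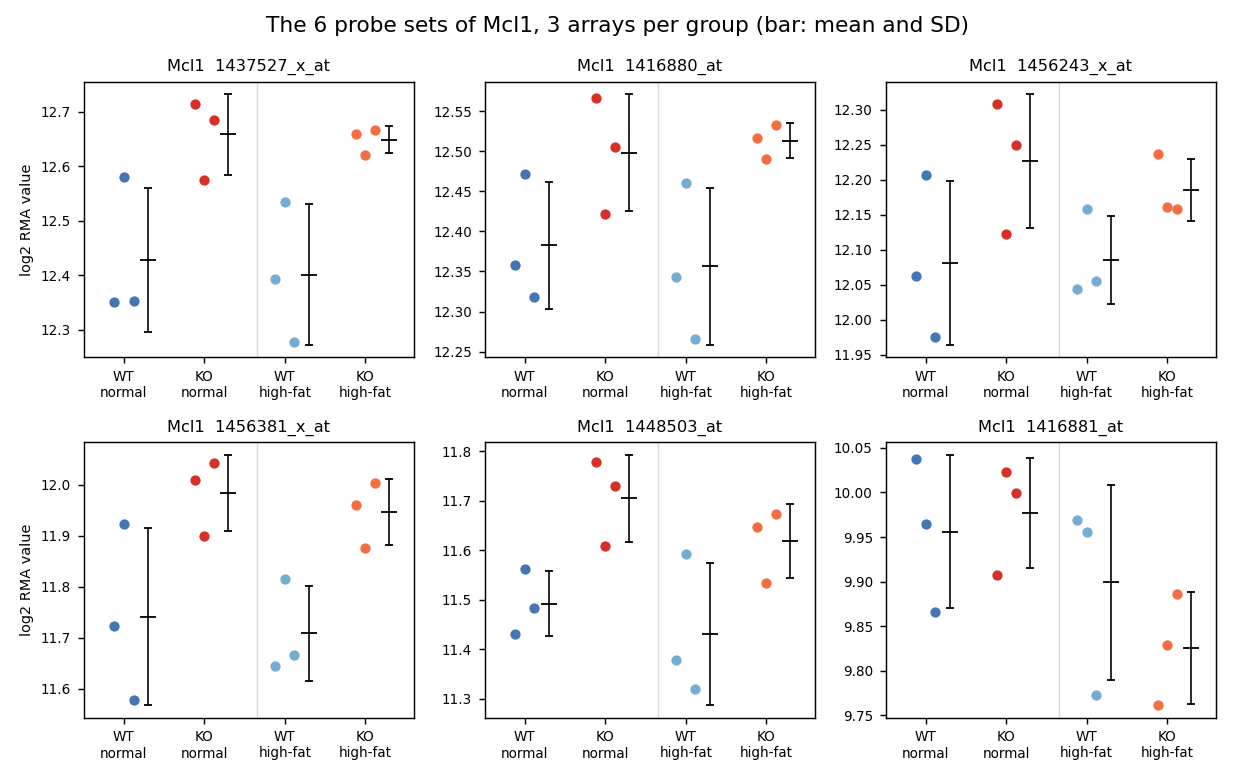
Log2 values (vertical axis) of the 6 Mcl1 probe sets, 1 point per array in the 4 groups, with the mean and SD of each group as a bar. In 5 sets the KO means lie 0.10 to 0.25 above the WT means of the same diet, and in 1416881_at the KO mean differs by 0.02 and −0.07.

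The pore former Bak1, which sits in the outer mitochondrial membrane, was read by 2 probe sets. The brighter, 1418991_at, read 8.39, 8.42 and 8.19 in WT normal, 8.40, 8.33 and 8.23 in KO normal, 8.57, 8.13 and 8.34 in WT high-fat and 8.40, 8.58 and 8.45 in KO high-fat. The genotypes overlapped on both diets, with an average difference of 0.06 (95% confidence interval −0.12 to 0.24, adjusted p = 0.678 with limma). The dimmer set, 1425716_s_at, was above 5 on 6 arrays and differed by 0.10 (adjusted p = 0.401).

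Of the BH3-only genes, Bcl2l11, the gene of BIM, was read by 5 probe sets, of which 0 passed the test. Its brightest, 1435448_at, read 11.15, 11.30 and 11.29 in WT normal, 11.11, 10.96 and 11.03 in KO normal, 11.15, 11.00 and 10.85 in WT high-fat and 11.16, 11.30 and 11.15 in KO high-fat. KO was below WT without overlap on the normal diet (−0.21, SE 0.10, adjusted p = 0.234 with limma) and had the higher mean on the high-fat diet, where WT array 1 reached the KO values (0.20, adjusted p = 0.364), so that the average was −0.01.

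The set 1456005_a_at, made for more than 1 transcript form of Bcl2l11, read 10.46, 10.92 and 10.68 in WT normal, 11.10, 10.64 and 11.22 in KO normal, 10.23, 10.56 and 10.05 in WT high-fat and 10.72, 10.73 and 10.71 in KO high-fat. The high-fat groups did not overlap, and on the normal diet KO array 2 lay within the WT values. It had the largest positive average difference among the 28 sets, 0.37 (SE 0.12, 95% confidence interval 0.11 to 0.63), with an adjusted p of 0.0769 from limma. Over 19 alternatives the adjusted p ran from 0.033 to 0.171, and it was under the threshold in 2 of them, those that left out array 2 of KO normal (0.0366) or of WT high-fat (0.033). The average differences of the dim sets were 0.12 for 1456006_at, 0.02 for 1435449_at and −0.01 for 1426334_a_at.

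Bid, whose protein is activated when caspase 8 cuts it, read 8.79, 8.70 and 8.92 in WT normal, 8.61, 8.39 and 8.33 in KO normal, 8.83, 8.46 and 8.44 in WT high-fat and 8.71, 8.85 and 8.48 in KO high-fat in its brightest set, 1417045_at. On the normal diet every KO array was below every WT array, with a difference of −0.36 (SE 0.13, adjusted p = 0.16 with limma), and on the high-fat diet the groups overlapped (0.10, adjusted p = 0.752). The dimmer set 1448560_at differed by 0.03 on average.

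Bad, which binds BCL-XL unless it is phosphorylated, read 10.52, 10.32 and 10.27 in WT normal, 10.10, 10.17 and 9.93 in KO normal, 10.45, 10.11 and 10.28 in WT high-fat and 10.13, 10.29 and 10.02 in KO high-fat in set 1416583_at. The normal-diet groups did not overlap (−0.31, SE 0.12, adjusted p = 0.176 with limma), the high-fat groups did (−0.13, adjusted p = 0.625), and the average was −0.22 (adjusted p = 0.115). The brighter set 1416582_a_at, which correlated with it at r = 0.84 over 12 arrays, had an average difference of −0.17 (SE 0.09, adjusted p = 0.224).

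Bbc3, the gene of PUMA, read 7.09, 6.82 and 7.08 in WT normal, 6.88, 7.03 and 7.23 in KO normal, 7.28, 6.96 and 7.01 in WT high-fat and 6.94, 6.99 and 7.04 in KO high-fat. All groups overlapped, and the average difference was −0.02 (95% confidence interval −0.21 to 0.17, adjusted p = 0.894 with limma). Pmaip1, the gene of NOXA, had the widest spread between arrays of a group. It read 6.10, 6.63 and 6.87 in WT normal, 7.24, 6.53 and 6.69 in KO normal, 7.12, 6.84 and 7.18 in WT high-fat and 7.09, 6.01 and 7.32 in KO high-fat. The interval of its average difference ran from −0.46 to 0.51 (estimate 0.03, adjusted p = 0.953), so changes of that size in either direction could not be told from 0 here.

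The high-fat diet was compared with the normal diet to ask whether the members respond to the dietary load. In WT 0 of 28 member probe sets passed the test, where 0.0508% of all did, and 3 (10.7%) had an unadjusted p under 0.05, against 11.2% of all. In KO it was 0 of 28, with 0% of all called, and 1 (3.57%) at an unadjusted p under 0.05, against 8.4%. The median member difference was −0.03 in WT and −0.01 in KO. Values did not overlap between the diets for 2 of 28 member probe sets in WT (15.7% of all) and for 5 of 28 in KO (13.3%). The 2 in WT include Bcl2l11 1426334_a_at, which passed the filter through WT normal, where it is higher, so it adds nothing to that count as support.

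The WT set with the smallest p was Bcl2 1437122_at, which read 7.00, 6.90 and 7.22 on the normal and 6.87, 6.68 and 6.61 on the high-fat diet, all high-fat arrays being lower (−0.32, SE 0.11, adjusted p = 0.297 with limma). In KO the same set read 6.87, 7.03 and 7.11 on the normal and 7.01, 7.04 and 6.94 on the high-fat diet, with overlap (−0.01). The next in WT were both of Bcl2l11, 1435448_at (−0.24, adjusted p = 0.375) and 1456005_a_at (−0.40, adjusted p = 0.409). Pmaip1 differed between the diets by 0.51 in WT (SE 0.31, 95% confidence interval −0.17 to 1.20, adjusted p = 0.593), where WT normal array 3 overlapped the high-fat values, and by 0.30 when WT normal array 1, the lowest, was left out. In KO both Bak1 sets were higher on the high-fat diet without overlap, by 0.16 and 0.21 (adjusted p = 0.797 and 0.654). The second, 1425716_s_at, lay at the filter value there, at 4.91 to 4.98 in KO normal and 5.04 to 5.35 in KO high-fat. The diet differences of the called Mcl1 set were −0.03 in WT and −0.01 in KO, and those of the called Bcl2 set 0.15 and 0.26, all under the spread between arrays.

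**Figure D5:**
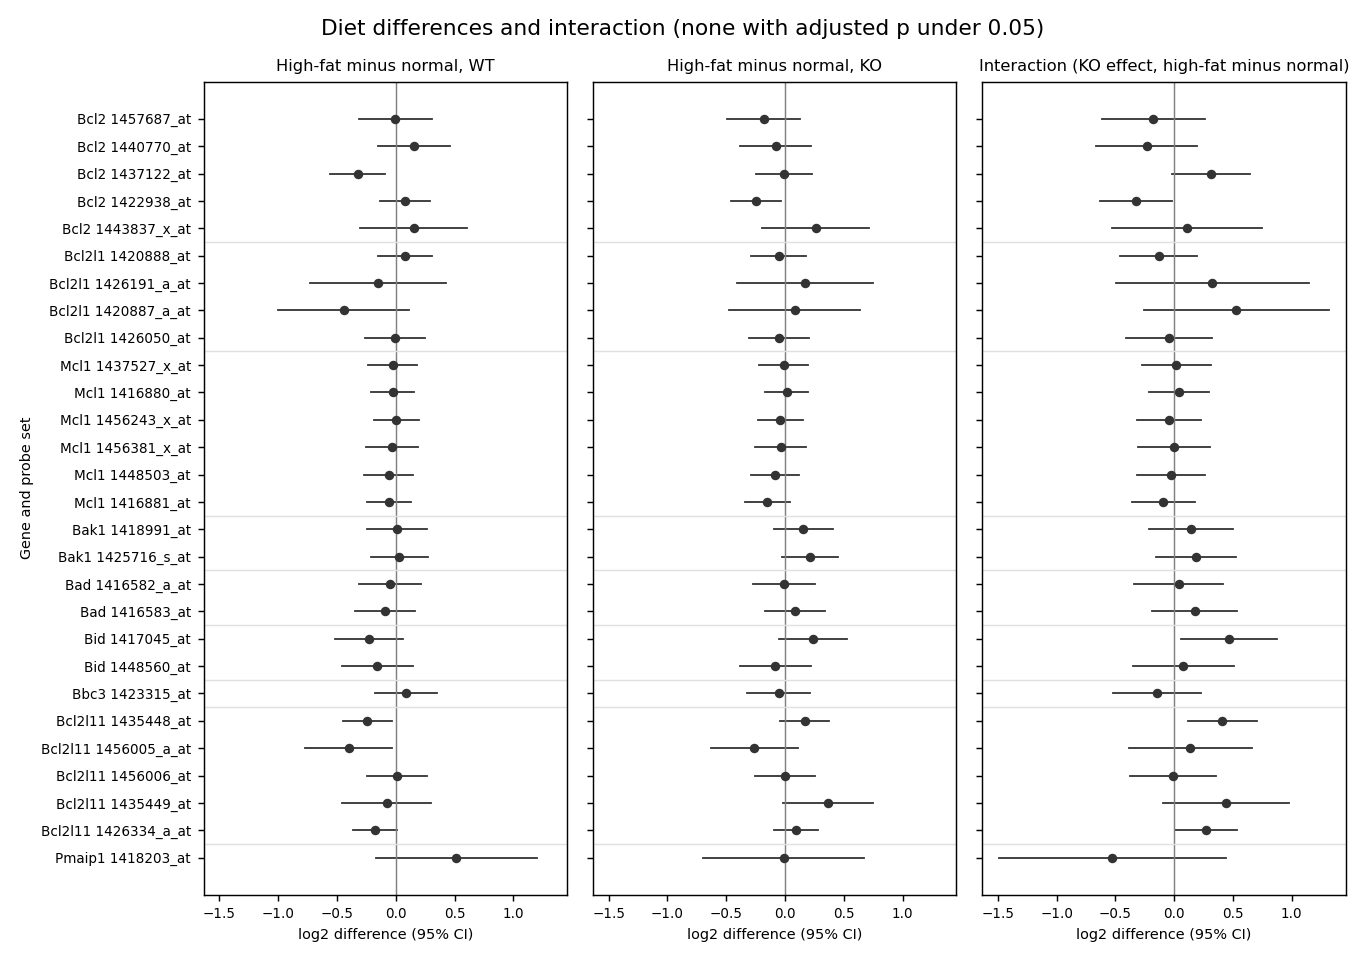
Log2 difference of the high-fat minus the normal diet (horizontal axis) in WT and in KO, and the interaction (KO difference minus WT difference), for the 28 tested member probe sets, with 95% confidence intervals as lines. None passed an adjusted p of 0.05, and Pmaip1 had the widest intervals, such as −0.17 to 1.20 for the diet in WT.

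The interaction was past the threshold for 0 of 28 members and for 0% of all probe sets. At an unadjusted p under 0.05 there were 4 members (14.3%), against 4.99% of all. These 4 were Bcl2l11 1435448_at, with an interaction of 0.41 (SE 0.14, adjusted p = 0.956 with limma), Bid 1417045_at with 0.46 (adjusted p = 0.982), Bcl2 1422938_at with −0.32 (adjusted p = 0.988) and Bcl2l11 1426334_a_at with 0.27 (adjusted p = 0.989). In Bcl2l11 1435448_at the WT mean was lower on the high-fat diet by 0.24 and the KO mean higher by 0.17. In Bid the WT mean was lower by 0.23 and the KO mean higher by 0.24. Bcl2 1422938_at ran the other way: it read 6.83, 6.64 and 6.80 in WT normal, 6.65, 6.86 and 6.89 in KO normal, 6.95, 6.77 and 6.79 in WT high-fat and 6.53, 6.65 and 6.47 in KO high-fat, where KO was lowest without overlap with WT high-fat. The 2 Bcl2l11 sets correlated at r = 0.70 over 12 arrays and read the same gene. Of them, 1426334_a_at lay between 4.79 and 5.11 and was above 5 on 5 arrays, among them all of WT normal. It passed the filter through that group, where its mean is highest, and adds nothing to the count of 4 as support. Leaving out WT high-fat array 2 gave an unadjusted p of 0.0186 for Bcl2l11 1435448_at, 0.0351 for Bcl2, 0.0676 for Bid and 0.0545 for Bcl2l11 1426334_a_at.

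The neighbours of the family in the apoptosis pathway were read by their brightest probe set, from 6 lists, for the average of KO against WT, in which 6.98% of 15237 genes were called. The family's other 9 tested genes gave 0 calls (median −0.03, 2 higher, beside −0.04 for all genes). Another 4 of the 15 listed had no probe set with their symbol alone in the platform's table, and 2 were below the filter. Sets with several symbols were not searched. With the smallest p in this list over the average and the diet comparisons were the BH3-only genes Bik, with a diet difference of −0.65 in WT (adjusted p = 0.262), and Bmf, with −0.40 in KO (adjusted p = 0.435), and Bcl2l14, with 0.29 in KO (adjusted p = 0.583). Of 13 apoptosome and caspase genes 1 was called lower and 0 higher (median −0.08). It was Casp8, the initiator caspase of death receptors, which read 10.07, 9.84 and 9.92 in WT normal, 9.70, 9.48 and 9.58 in KO normal, 9.77, 9.78 and 9.91 in WT high-fat and 9.61, 9.71 and 9.75 in KO high-fat. All KO arrays were below all WT arrays, and on average it fell by 0.24 (adjusted p = 0.042 with limma). That call was lost with cyclic loess (−0.19, adjusted p = 0.101), with median centring (−0.19, 0.11), with the replicate block (0.0647), with the random block (0.0712) and without any 1 of 9 arrays (0.0598 to 0.104). Casp8 too lies on chromosome 1 with Sgpp2, with 140 coding genes between. Diablo, which frees caspases from their inhibitors (−0.18, adjusted p = 0.0795), and the executioner Casp6 (−0.12, adjusted p = 0.176) were not past the threshold.

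Of 6 caspase inhibitors 1 was called higher and 0 lower (median 0.12). Birc6, a large ubiquitin ligase, read 11.45, 11.54 and 11.57 in WT normal, 11.92, 11.92 and 12.20 in KO normal, 11.26, 11.72 and 11.50 in WT high-fat and 11.79, 11.70 and 11.88 in KO high-fat in its brightest set, 1419562_at. Only WT high-fat array 2 overlapped the KO values. It was higher in KO by 0.39 (adjusted p = 0.0206 with limma), and the call was lost when WT normal array 1 (0.0569) or KO normal array 3 (0.0521) was left out. Another Birc6 set, 1427488_a_at, fell by 0.43 (adjusted p = 0.0286), and the mean of all its sets differed by 0.09 (adjusted p = 0.334), so the sets of this gene disagreed in direction. Birc5, known from dividing cells, had a diet difference of 1.07 in KO (adjusted p = 0.549), which was 0.60 when KO high-fat array 3, the highest, was left out, and Cflar, the inhibitor of caspase 8, one of 0.29 in WT (adjusted p = 0.287).

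Of 12 transcription factors and other regulators of the family's genes, and of 12 kinases, ubiquitin ligases and others that act on its proteins, 0 were called. Among the first, Cdkn1a, a p53 target and cell cycle inhibitor, differed between the diets by 0.75 in WT (limma's adjusted p was 0.13) and by 0.42 in KO (0.481), and the high-fat arrays were above the normal arrays in both genotypes. Trib3, a target of ATF4 and CHOP, differed between the diets by 0.83 in WT (0.288) and by 0.71 in KO (0.51), and Trp73 differed by 0.28 between the genotypes (adjusted p = 0.0789). Among the second, Mapk9 and Akt1 had diet differences of −0.31 and −0.38 in WT (adjusted p = 0.183 and 0.256), and Mapk8 a genotype difference of −0.21 (adjusted p = 0.0904).

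Of 11 partners at the mitochondria and the endoplasmic reticulum 1 was called higher and 1 lower. Becn1, the autophagy protein that BCL2 binds, was higher in KO by 0.21 in its brightest set (adjusted p = 0.0337 with limma), which holds probes shared by several transcripts (suffix _s_at), while its other 4 sets differed by −0.19 to 0.01 and the mean of the 5 by −0.04 (adjusted p = 0.688), the opposite sign. The Becn1 call was also lost with the replicate block (0.0578), with the random block (0.0534) and without any 1 of 10 arrays (0.0504 to 0.0834). Vdac2, the outer membrane channel that holds BAK, fell by 0.20 (adjusted p = 0.0464), and its call was lost with median centring (−0.15, 0.144), without the filter (0.0548), with the replicate block (0.0706), with the random block (0.0681) and without any 1 of 11 arrays (0.0593 to 0.111). Itpr2, a calcium channel of the endoplasmic reticulum, differed by −0.38 (adjusted p = 0.0612). In the other 5 comparisons 0 genes of the 6 lists were called, where 1.08% of genes were called for KO on the normal diet, 0.138% on the high-fat diet, 0.0656% for the diet in WT and 0% for the diet in KO and the interaction. Under alternatives Birc6 was called on the normal diet (0.49, adjusted p = 0.0678) with median centring (0.0464), with an intensity trend (0.0334) and when WT high-fat array 2 was left out (0.0477).

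Likeness to each member's brightest probe set over the 12 arrays was measured by Pearson's r against 15236 other genes. Mcl1 was most like Zbtb33 (r = 0.97) and Rab6a (r = 0.97), with 670 genes above 0.8, and Bad most like Trappc12 (r = 0.98) and Mafg (r = 0.98), with 1459 genes above 0.8. Bcl2 had 4 genes above 0.8, the nearest being Ppp2r3c and Kcne4 (both r = 0.81). The nearest to Bcl2l1 were Smug1 (0.96) and Wdr33 (0.92), to Bak1 Pfdn1 (0.91) and Greb1 (0.88), to Bid Sstr2 (0.96) and Acot1 (0.92), and to Bbc3 Chrnd and Fzd9 (both 0.84). Those nearest to Bcl2l11 were Golga7b (0.92) and Plekha2 (0.91), and to Pmaip1 Adat1 (0.84) and Rnf213 (0.83). All these values share the 12 arrays with their differences in genotype and diet, and they are descriptions.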

How the data were processed

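Each of 12 samples gave 1 array. The deposited values are log2 RMA summaries by the authors, 1 per probe set and array: per the submitters' processing notes the tools were RMA and Partek 6.6, with no options stated. The labels' protocols give Trizol extraction and 4 ug of total RNA per biotin-labelled sample. Array medians lay between 7.00 and 7.13 and values between 2.60 and 15.04. RMA gives the arrays nearly the same distribution, so a shift of most genes 1 way would be hidden, and dim probe sets understate differences. The number of arrays limits the precision: the median SE of a member's average difference was 0.08.

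Of 45101 probe sets, 64 controls were left out; 34945 had 1 gene symbol in the platform's table, 932 several and 9160 none, and 34741 matched a RefSeq gene table (GRCm38.p6) by Entrez identifier. The 35426 that exceeded 5 (log2) on 3 or more arrays were fitted with limma 3.58.1 in R 4.3.3, with 1 coefficient per group over all 12 arrays and 8 residual degrees of freedom (11.63 after moderation); 6 contrasts were tested. Every adjusted p is limma's, by Benjamini-Hochberg within a contrast. The fit was checked on simulated data for the average of KO against WT only, with independent noise per probe set, and the other contrasts were not checked. Figures used matplotlib 3.10.9 and Python 3.11.15.

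Named are all member probe sets; of each list, the genes past the threshold and the 3 with the smallest p over the average and the diet comparisons; and the 2 genes most like each member. A gene outside the members stands for its brightest probe set; all sets of called list genes were also read. The members, lists and tests were chosen with earlier results of these data known. Alternatives were cyclic loess, median centring, no filter, a filter at 6, 1 probe set or the mean per gene, only the groups compared, an intensity trend, the replicate number as a block and leaving out each array, with random and KO-only blocks added after the data were seen. The deviations of same-numbered KO normal and KO high-fat arrays correlated at r = 0.26, 0.26 and 0.06 over all probe sets tested, and at 0.29, 0.38 and 0.14 over the brightest set per gene; those of the other pairs of groups did not all exceed 0.1. The labels do not say what the numbers stand for.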

Additional observations from a re-analysis of the deposited data

How the results depend on the processing

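The Bcl2 set among the 2 member calls, over both diets, passed the filter through its WT arrays and adds nothing to the count as support. The 2 calls depended on the settings as follows. Member calls numbered 1 with cyclic loess, 4 with median centring, 1 without the filter, 1 with 1 probe set per gene, 0 with the mean of a gene's sets, 4 with an intensity trend, 1 with the replicate block and 1 with the random block of KO arrays, and between 1 and 5 when an array was left out (5 without WT high-fat array 2, 3 without WT normal array 2). Of 543 member values of that comparison under alternatives, 518 kept their side of the threshold and direction, 15 lost the call, 10 gained one and 0 called values reversed; 41 uncalled values changed sign. In the other 5 comparisons 0 member calls were made under any setting run.

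Calls over all probe sets moved as follows. For the average (2972 calls) they were 963 with 1 probe set per gene and 652 with the gene mean, where fewer features are tested, 1870 with the random block, and 1226 to 5075 with an array left out (5075 without WT high-fat array 2, 1226 without WT normal array 1). On the normal diet (476) they were 128, 69, 33 with only the groups compared, 927 with the trend and 175 with the replicate block, and 13 to 613 with an array left out. On the high-fat diet (96) they were 51 with cyclic loess, 63 with median centring, 145 with the filter at 6, 4 and 4 per gene, 2 with only the groups compared, 356 with the trend, 27 with the block, and 11 to 910 with an array left out (910 without WT high-fat array 2). For the diet in WT (18) they were 7 with the filter at 6, 2 with only the groups compared, 32 with the trend, 0 with the block, and 0 to 18 with an array left out. The diet in KO and the interaction gave 0 under each setting run. Rises made up 45.3% of the average's calls, 64.5% with cyclic loess and 72.2% with median centring; on the normal diet 53.2%, 75.6% and 80.7%, and on the high-fat diet 37.5%, 47.1% and 58.7%. The mean of the Becn1 sets reversed that gene's average to −0.0357. Apart from the losses given for Mcl1, Casp8, Becn1 and Vdac2, the replicate block (pairing by number) changed no member or named list gene's call. Unless the construction shows it, the cause was not tested.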
